A study of Caenorhabditis elegans with 2 samples.

Results

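The regions described here are 424 weak candidate binding regions of NHR-11, a nuclear hormone receptor of Caenorhabditis elegans, that fell just short of the authors' reproducible peak list but were among the 3000 highest candidates in both replicates. They were chosen from the pooled ce11 candidate list of 30000 regions, ordered by the authors' peak signal. The 1970 regions that follow the reproducible list down to rank 3000 were taken, and a region was kept where it overlapped, by at least 1 base, a region among the 3000 highest in each replicate. The signal values therefore chose the 424 regions, and their signals and ranks are given as a description.

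ChIP-seq was carried out on whole L3 larvae, males and females pooled, of strain OP305, with 2 biological replicates and no other condition. The strain carries the unc-119(ed3) mutation and the insertion wgIs305, which is labelled as targeting nhr-11 and described as an eGFP fusion. The label for the antibody gives nhr-11. The promoter that drives the fusion and the cell types that hold it are not given in the labels, so a signal from whole animals cannot be placed in a tissue. The lists hold no read counts, the depth of each replicate is unknown, and each peak signal is a single value from the authors' caller with no error of its own.

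Nuclear hormone receptors are transcription factors with a zinc-finger DNA-binding domain and a domain that in many members binds a small ligand. The family is greatly expanded in nematodes, and several of its members control fat metabolism, moulting and responses to the environment. Candidate lists for an irreproducible discovery rate (IDR) filter are made deliberately long, so that they run from strong binding into background.

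The sequences at the summits, the points of highest signal within a region, are shown for 6 regions that held 1 of the words found often at stronger NHR-11 peaks, and for 2 regions without them. They are the highest-ranked ones whose whole window, 50 bases to each side of the summit on ce11 (RefSeq WBcel235) and read on the plus strand, was intergenic. Capitals mark the words GAGAGA or else AGACGC or else GCGCGC on either strand. TCTCTC is the reverse-strand form of the first, and GCGTCT that of the second.
Upstream of C18F10.7, chrIII:6278565-6278665, plus strand: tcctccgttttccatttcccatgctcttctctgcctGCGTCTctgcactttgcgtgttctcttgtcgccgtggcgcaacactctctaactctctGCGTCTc
Between ZK418.10 and ZK418.2, chrIII:7090739-7090839, plus strand: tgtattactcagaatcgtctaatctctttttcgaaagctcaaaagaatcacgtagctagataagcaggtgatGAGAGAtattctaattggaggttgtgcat
Upstream of ida-1, chrIII:5755242-5755342, plus strand: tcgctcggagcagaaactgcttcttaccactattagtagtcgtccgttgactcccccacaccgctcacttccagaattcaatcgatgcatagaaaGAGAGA
Upstream of nhr-58, chrV:532146-532246, plus strand: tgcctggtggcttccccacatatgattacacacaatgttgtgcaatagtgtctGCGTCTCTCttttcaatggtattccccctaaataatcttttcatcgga
Upstream of B0348.10, chrV:8858-8958, plus strand: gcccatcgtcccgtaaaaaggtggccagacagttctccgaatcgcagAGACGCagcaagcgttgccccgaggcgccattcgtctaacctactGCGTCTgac
Nearest to unc-104, chrII:6992974-6993074, plus strand: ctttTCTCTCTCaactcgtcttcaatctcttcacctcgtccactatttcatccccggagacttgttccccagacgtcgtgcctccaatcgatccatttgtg
Without the words, upstream of C12D8.21 and col-148, chrV:10241292-10241392, plus strand: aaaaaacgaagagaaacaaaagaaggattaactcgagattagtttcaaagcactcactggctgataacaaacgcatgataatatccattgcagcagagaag
Without the words, nearest to cmd-1, chrV:1153992-1154092, plus strand: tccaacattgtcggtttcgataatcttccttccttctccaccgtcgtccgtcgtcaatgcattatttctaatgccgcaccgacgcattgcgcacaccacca
The window upstream of nhr-58, which encodes another nuclear hormone receptor, held AGACGC and GAGAGA in reverse orientation, sharing 3 bases. The windows of C18F10.7 and B0348.10 each held AGACGC at 2 places, and that nearest to unc-104, a kinesin gene, held GAGAGA at 2 overlapping places.

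The 424 regions had pooled signals from 38.1 to 54.8, with a median of 48.1, against 54.9 to 899 and a median of 73.8 in the reproducible list. At the upper limit the last reproducible peak had a pooled signal of 54.863 and the next region 54.843. At the lower limit rank 3000 had 37.995 and the next region 37.991. In replicate 1 the matched regions had signals of 21.8 to 149, median 25.2, and the signals at rank 3000 and just after it were 21.786 and 21.785. In replicate 2 they reached 150, with a median of 23.5, and the values on either side of that limit were 19.909 and 19.906. The signal changed smoothly across every limit, so no gap separates the regions from their neighbours in rank.

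Of the 1970 regions in the rank range, 1081 had a match in replicate 1 and 1058 in replicate 2, and 255 had none in either. The share matched in both decreased with pooled rank, which the rule in part sets. It was 67.1% (95% Wilson interval 59.7 to 73.7) down to rank 1200, 52.5% to rank 1400, 41.0% to rank 1600, 19.0% to rank 2000 and 4.70% from there to rank 3000. The set thus lies mostly near its upper limit, with a median pooled rank of 1376. The median rank was 1682 in replicate 1 and 1752 in replicate 2, with 228 regions ranked better in replicate 1 and 196 in replicate 2.

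**Figure D1:**
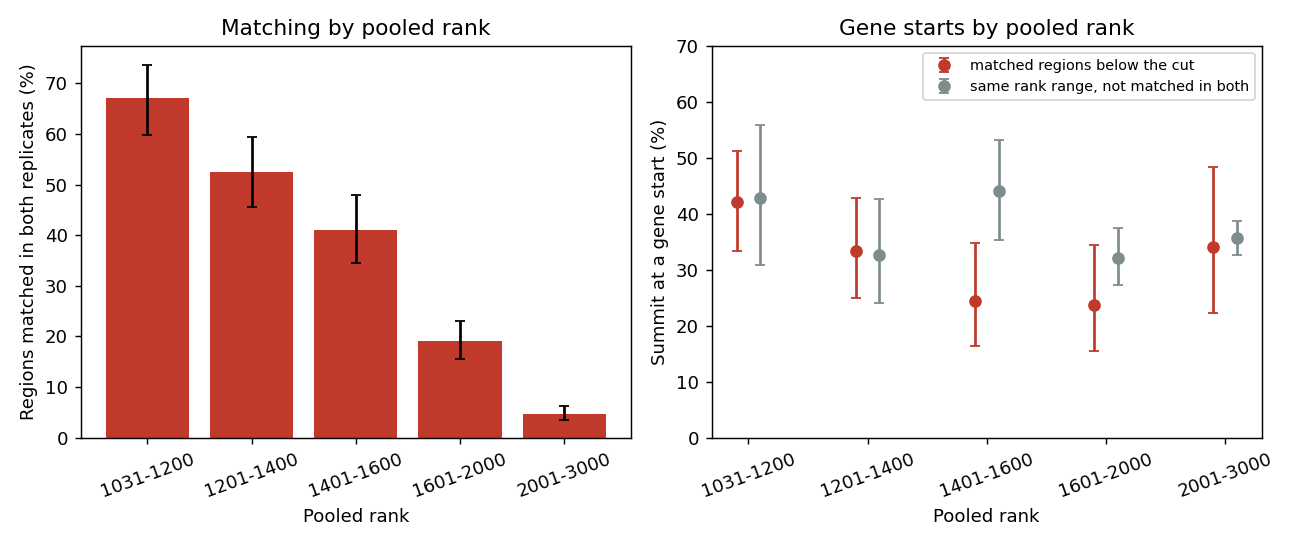
Left, percent of pooled candidate regions matched in both replicates by pooled rank; right, percent of summits at a gene start for matched regions and for regions of the same ranks not matched in both. Bars and points are shares and whiskers are 95% Wilson intervals; matching drops to 4.70% in the last group, while the gene start shares have overlapping intervals except at ranks 1401 to 1600 (24.4% of matched and 44.1% of other regions).

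Among the 424 regions Spearman's rho between the signals of replicate 1 and replicate 2 was 0.0284. This describes regions that share both libraries and were selected as high in each, a choice that narrows the range of both values. The rule also sets an upper limit on the pooled signal, which comes from both replicates. The selection thus shapes the value, which cannot tell how well the replicates agree. The summit of the matching region lay a median of 12 bases from the pooled summit in replicate 1 and 22 bases in replicate 2, and for 284 regions both lay within 100 bases.

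A group of 22 regions stood apart in the replicates. Each overlapped a reproducible peak, and the replicate region that it matched also overlapped a reproducible peak, in both replicates for 21 of them. All 22 summits lay 200 to 264 bases from the summit of the reproducible peak, and all 22 on its side of higher coordinate. The region with the best ranks was of this kind. It lay in an intron at chrIII:8802111-8802466, 1588 bases upstream of the start of F54F2.6, with signals of 149 in replicate 1 and 150 in replicate 2 but 39.9 in the pooled list, and 203 bases from a reproducible summit. The replicate region behind such values also overlaps a reproducible peak, so the values cannot be given to the weak region alone.

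The same holds for the other regions with the best ranks. A region upstream of egg-5, which takes part in the change from egg to embryo, had 91.8 in replicate 1, 77.9 in replicate 2 and 46.1 pooled. One in coding sequence, 346 bases past the start of Y18D10A.4, had 78.5, 76.4 and 44.0, and one 2210 bases upstream of sup-26, which encodes an RNA-binding protein, had 86.2, 74.5 and 44.4. A second region at F54F2.6, in an intron 252 bases past the start, had 57.6, 63.0 and 46.3. One 1656 bases upstream of tmem-184 had 56.1, 66.8 and 44.8, and an intronic one whose nearest start was that of C26C6.8 ranked 64 in replicate 1 and 209 in replicate 2, with 39.3 pooled. The last of the 8 regions with the best ranks lay 1683 bases upstream of let-756, a fibroblast growth factor gene, with 42.6, 54.1 and 52.3. All 8 shared their replicate regions with a reproducible peak, at 200 to 233 bases.

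Without the 22, the other 402 regions had signals of 21.8 to 39.0 in replicate 1 and up to 45.9 in replicate 2. Spearman's rho across them was -0.0990, under the same limits of selection. Of the 402, 30 matched a replicate region that another of them also matched, in both replicates, so their values enter more than once. Of all 424, 22 were within a top set as long as the reproducible list in both replicates, 50 in replicate 1 alone, 47 in replicate 2 alone and 305 in neither. Of those 22 in both, 19 shared a replicate region with a reproducible peak. The 3 that did not, named after their values were seen, lay 576 bases upstream of rpa-2 (32.9 in replicate 1, 45.9 in replicate 2), in an intron whose nearest start was that of Y105C5A.15 (30.6 and 31.2), and 9857 bases upstream of T19H5.4 (29.6 and 31.9). In the region at rpa-2 only 66.6% of the 31-base stretches are unique in the genome, so reads there could come from another copy.

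**Figure D2:**
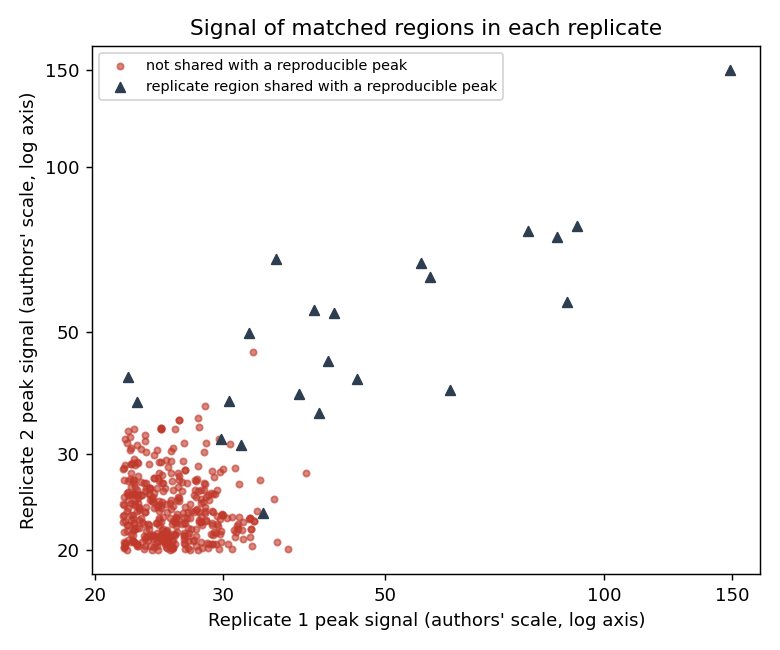
Peak signal of each of the 424 regions in replicate 1 (horizontal, log axis) and replicate 2 (vertical, log axis), on the authors' scale. Circles are the 402 regions that share no replicate region with a reproducible peak, which reach 39.0 and 45.9; triangles are the 22 that share a replicate region with a reproducible peak, which reach 149 and 150.

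The region with the highest pooled signal, 54.8, lay at chrV:10241164-10241519, 154 bases upstream of C12D8.21 and 411 bases upstream of col-148, a cuticle collagen gene. It had 28.8 in replicate 1 and 25.4 in replicate 2. The next, also 54.8, lay 2229 bases upstream of cmd-1, the calmodulin gene, with 32.8 and 20.4. A region 1427 bases upstream of prdh-1, which encodes a proline dehydrogenase, had 54.7 pooled. The regions nearest to cmd-1 and prdh-1 ranked higher in replicate 1, at 753 and 720, than in replicate 2, at 2767 and 1720.

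Of the other 9 of the 12 highest, 1 shared its replicate regions with a reproducible peak, 544 bases upstream of Y62F5A.12. A region 814 bases upstream of ubxn-3, a cofactor of the CDC-48 ATPase, had signals of 24.3 in replicate 1 and 30.4 in replicate 2. One at the 5' UTR of snrp-40.1, a gene for a protein of the spliceosome, ranked 1236 and 1158. The regions at C18F10.7 and between ZK418.10 and ZK418.2, printed above, had 29.7 and 22.8, and 28.3 and 24.0. The remaining 4 lay away from gene starts, in introns with rfip-1, F22F7.7 and nlp-21 as the nearest starts and between genes 5588 bases upstream of exc-7, which encodes an RNA-binding protein. Of the 12, 6 had a summit at a protein-coding gene start.

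Position was not used in the choice. The summit lay at a protein-coding gene start, from 1000 bases upstream to 500 bases downstream, in 137 of the 424 regions (32.3%). The share was 49.6% in the reproducible list, and the difference of -17.3 percentage points had a 95% Newcombe interval of -22.6 to -11.8. It was 35.6% in the other 1546 regions of the rank range, those not matched in both replicates (difference -3.26, interval -8.18 to 1.89), and 28.3% in the 27000 candidates of lower rank. The 424 regions thus lay at gene starts less often than the reproducible peaks. Over the whole range no difference from the other regions was resolved. Of those 1546 regions, 1291 matched in 1 replicate alone, and 953 lay at ranks 2001 to 3000, against 47 of the 424, so a share over all of them also compares different ranks. By pooled rank the gene start share was 42.1% of the 424 and 42.9% of the other regions down to rank 1200. To rank 1400 it was 33.3% and 32.6%. It was 24.4% and 44.1% to rank 1600, with intervals apart in that step alone. To rank 2000 it was 23.7% and 32.1%, and to rank 3000 34.0% and 35.6%. At the summits of replicate 1 the share of the 424 was 32.5% and at those of replicate 2 it was 32.8%. Regions are not replicates of a condition, and all intervals cover counting error only.

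The median distance to the nearest gene start was 1479 bases in the 424 regions, against 896 bases in the reproducible list and 1466 bases in the others of the rank range. Of the 137 summits at a start, 110 were upstream of the nearest one, at a median distance of 254 bases.

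**Figure D3:**
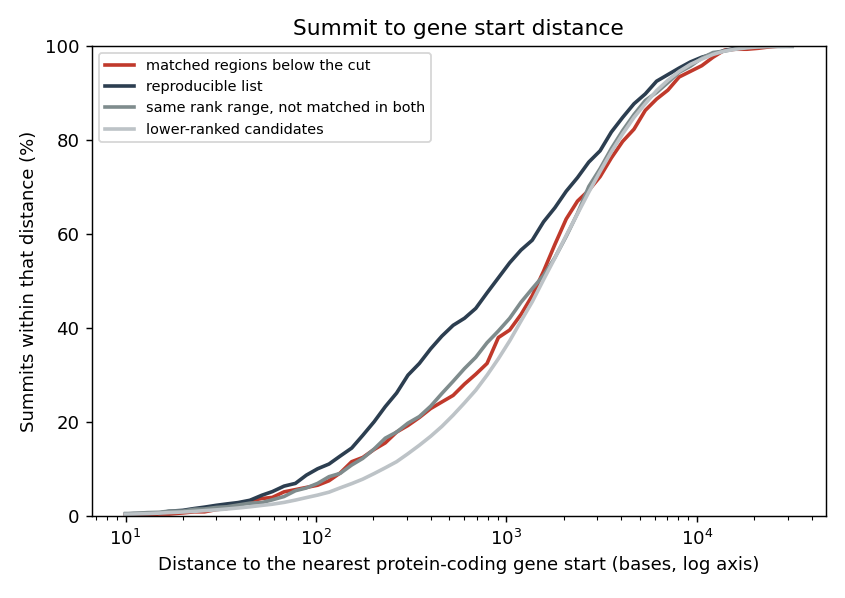
Percent of summits within a given distance of the nearest protein-coding gene start (log axis, bases) in 4 groups of regions. The curve of the 424 matched regions runs below that of the reproducible list, with medians of 1479 and 896 bases.

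By annotation, 219 of the 424 summits were intergenic (51.7%, 46.9 to 56.4), 61.3% in the reproducible list and 47.7% in the other regions of the range. Intergenic sequence makes up 34.6% of the genome. Introns held 28.1%, against 23.2% of reproducible peaks. Coding sequence held 28 summits, or 6.60% (4.61 to 9.38), against 1.94% of reproducible peaks, 12.4% of the other regions of the range and 21.4% of lower candidates. Coding sequence makes up 24.3% of the genome. The difference in coding sequence was 4.66 points from the reproducible list (2.41 to 7.52) and -5.82 points from the other regions of the range (-8.46 to -2.64). By pooled rank the coding share was 3.51% of the 424 regions and 3.57% of the other regions down to rank 1200, 3.81% and 8.42% to rank 1400, 12.2% and 8.47% to rank 1600, 10.5% and 13.6% to rank 2000, and 4.26% and 13.4% to rank 3000. The intervals overlapped at each rank step and the direction was not the same throughout. The 3' UTR held 5.19%, against 1.36% of reproducible peaks (difference 3.83, interval 1.87 to 6.43). It held 4.53% of the other regions of the range (difference 0.661, interval -1.42 to 3.37). Exons of noncoding genes held 5.19%, against 9.32% of reproducible peaks (difference -4.13, interval -6.73 to -1.11). They held 5.69% of the other regions of the range (difference -0.503, interval -2.65 to 2.25). In both classes no difference from those other regions was resolved.

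**Figure D4:**
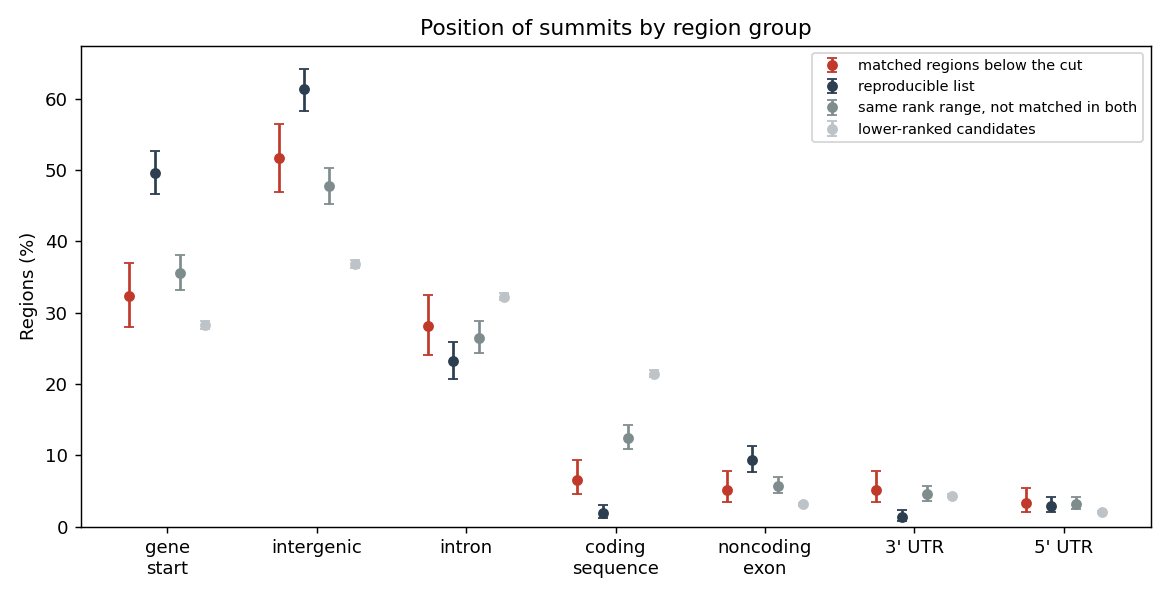
Percent of summits at gene starts and in 6 annotation classes, for the 424 matched regions, the reproducible list, the other regions of the same rank range and the lower-ranked candidates; whiskers are 95% Wilson intervals. Coding sequence holds 6.60% of the matched regions, between 1.94% of the reproducible list and 12.4% of the other regions of the range.

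Chromosome II held 109 of the 424 regions, or 25.7% (21.8 to 30.1), and 15.2% of the genome's length. Its share was 19.5% in the reproducible list (difference 6.19 points, 1.52 to 11.1) and 18.8% in the other regions of the range (6.88 points, 2.46 to 11.6). By the same rank steps it was 28.1% of the 424 and 16.1% of the other regions, 28.6% and 16.8%, 19.5% and 16.9%, 18.4% and 19.1%, and 36.2% and 19.3%, and the intervals were apart in the last step alone. Of the 109, 72 lay in the middle part of the chromosome when it is divided into 3 equal parts (66.1%, 56.8 to 74.3), against 57.2% of reproducible peaks there (50.3 to 63.9). The density was 7.13 regions per megabase on chromosome II and 2.92 on chromosome V, the lowest. The X chromosome held 82 regions (19.3%), against 20.4% of the reproducible list, a difference of -1.05 points with an interval of -5.37 to 3.61.

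The summit lay within 1000 bases of a reproducible summit in 34 of the 424 regions (8.02%), against 2.65% of the other regions of the range (difference 5.37 points, 2.96 to 8.42) and 1.61% of the lower candidates. By rank step it was 7.02% of the 424 and 7.14% of the other regions, 4.76% and 4.21%, 7.32% and 2.54%, 11.8% and 2.47%, and 12.8% and 2.31%, with intervals apart in the last 2 steps. The rule in part sets these differences, since a region beside a reproducible peak can match a replicate region that overlaps that peak. The 22 regions of that kind are counted in the shares and rank steps above. Without them the share was 2.99% of the 402, against the 2.65% of the other regions of the range. The median distance to a reproducible summit was 24138 bases, and 109 regions lay within 10000 bases of another of the 424.

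GAGAGA was the most frequent of the 12 words searched on both strands within 50 bases of the summit. It was found in 97 of the 424 regions (22.9%, 19.1 to 27.1) and in 8.02% of windows of the same length 300 bases to either side. The share was 28.6% in the reproducible list (difference -5.76 points, -10.5 to -0.756), 13.9% in the other regions of the range (8.97 points, 4.81 to 13.5) and 6.42% in the lower candidates. At the summits of replicate 1 it was 20.8% and of replicate 2 19.8%. The 424 regions thus held the word less often than the reproducible peaks and more often than the other regions of the range as a whole. At like rank this second difference was smaller: 25.4% of the 424 and 17.9% of the other regions down to rank 1200, 26.7% and 23.2% to rank 1400, 19.5% and 16.9% to rank 1600, 22.4% and 15.1% to rank 2000, and 14.9% and 114 of 953 to rank 3000. It was higher in the 424 in each of the 5 steps, with overlapping intervals in each.

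AGACGC was found in 8.73% of the 424 regions (6.40 to 11.8) and 2.24% of their flanks, against 13.4% of reproducible peaks, 4.98% of the other regions of the range and 2.16% of lower candidates. By rank step it was 11.4% of the 424 and 12.5% of the other regions, 5.71% and 9.47%, 9 of 82 regions and 5.08%, 10.5% and 4.94%, and 2.13% and 4.09%, with overlapping intervals and no single direction. ACGCAG, which can overlap AGACGC by 4 bases, was found in 7.08%, against 16.7% of reproducible peaks (difference -9.62 points, -12.8 to -6.06), and 22 regions held both. GCGCGC was found in 1.89%, against 5.15% of reproducible peaks, and CACGTG, the E-box, in 3.07%, against 6.21%. In the other regions of the range ACGCAG was found in 5.11%, GCGCGC in 1.36% and CACGTG in 3.30%. No difference between the 424 and those regions was resolved for these words (intervals -0.438 to 4.98, -0.639 to 2.38 and -1.85 to 2.02 points). At least 1 of the GA repeat, AGACGC and the CG repeat was present in 126 regions (29.7%), against 40.2%, 18.1% and 8.63% in the other groups in the same order.

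The core words bound by many nuclear receptors did not follow this pattern. AGGTCA was found at 5 summits (1.18%, 0.505 to 2.73) and in 2.36% of flanks, AAGTCA in 5.90% and 4.83%, and AGTTCA in 5.66% and 6.60%. At the summits of replicate 1 AGGTCA was found in 2.83%. The TATA word TATAAA was found in 10.4%, close to its 10.6% in flanks, against 4.56% of reproducible peaks (difference 5.81 points, 2.87 to 9.27). It was found in 9.51% of the other regions of the range (difference 0.869 points, -2.13 to 4.41) and 11.4% of lower candidates. The flanks of the reproducible peaks held it in 10.7%. The GATA word TGATAA was found in 8.73% and 9.55% of flanks, the forkhead word TGTTTA in 5.90% and 8.02%, and the AP-1 word TGACTCA in 1.89% and 2.00%. A word in a window is a description of its letters and shows no binding to it.

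**Figure D5:**
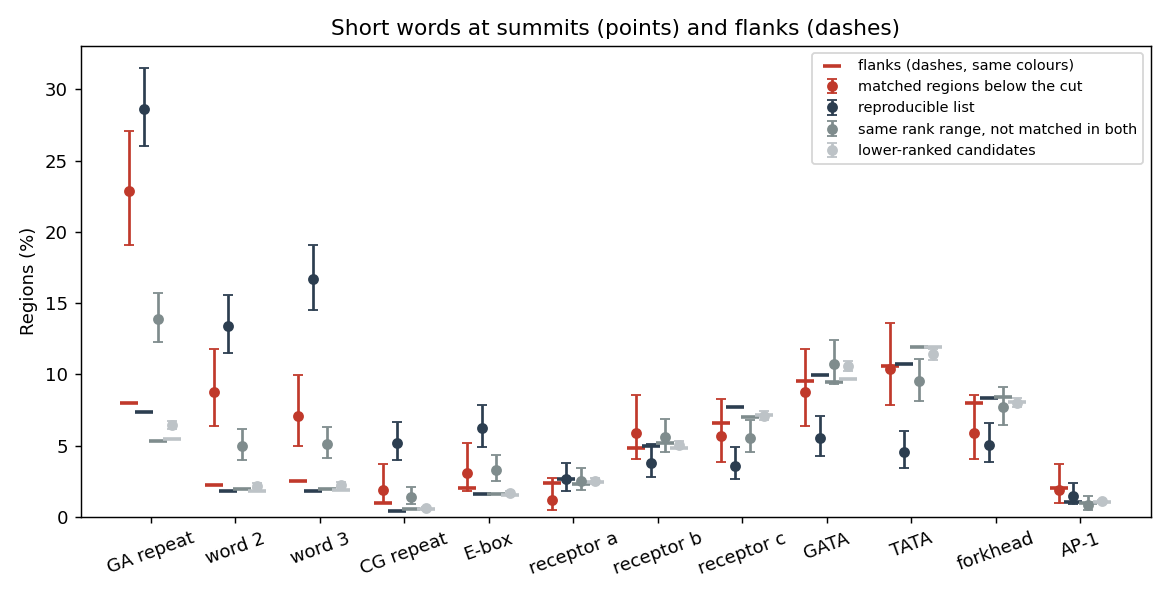
Percent of regions with each of 12 words within 50 bases of the summit (points, with 95% Wilson intervals) and in windows 300 bases away (dashes), in 4 groups. The GA repeat is GAGAGA, word 2 is AGACGC and word 3 is ACGCAG, and receptor a to c are the nuclear receptor words in the order of the text. GAGAGA is at 22.9% in the matched regions and 28.6% in the reproducible list.

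GC content within 50 bases of the summit averaged 39.9% ± 8.88 in the 424 regions (SD over regions), against 45.0% ± 8.36 in the reproducible list, 37.9% ± 8.14 in the other regions of the range and 35.0% ± 7.73 in the lower candidates. In the flanks of the 424 it averaged 35.9%. By rank step the means were 41.5% in the 424 and 41.7% in the other regions, 40.2% and 40.2%, 38.8% and 39.7%, 39.4% and 38.9%, and 38.1% and 36.9%. GC content and the GC-rich words moved together across these groups, and the part of GC content in the word shares was not tested. GAGAGA was found in 27.7% of the 424 regions at gene starts (20.9 to 35.8) and 20.6% of those away from them (16.3 to 25.6), with overlapping intervals. By chromosome its share ran from 14.7% on II (9.24 to 22.5) to 37.9% on III (26.6 to 50.8).

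A summit of the 424 regions lay at the start of 168 of 19973 protein-coding genes, or 0.841% of them, while 659 genes (3.30%) had a reproducible peak there. The 424 regions added 154 genes with no reproducible peak, and 14 genes had both. At most of the 14, the weaker region overlapped a reproducible peak and shared its replicate regions with it. Genes of this kind included act-1, sma-9, snr-4, ugt-58, Y18D10A.4, C28G1.2, sec-15, F54F2.6, egg-5 and Y62F5A.12. The count of 14 therefore does not show separate binding regions at each gene. Among the 14 were lgg-1, the worm gene for an ATG8 autophagy protein (52.5 pooled in the weaker region, 114 in the reproducible peak), alh-1, an aldehyde dehydrogenase gene (50.9 and 68.1), and brc-1, the BRCA1 counterpart (rank 2474, and 68.2 in the reproducible peak). These 3 were named after their values were seen.

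Most lists held few genes with one of the 424 regions, and the share in each is to be read beside the 0.841% of all protein-coding genes. The lists were chosen with earlier results known, and counts this small are given without a test. Of 81 cytosolic ribosomal protein genes, 2 had a region of the 424 at the start (2.47%), rpl-36.A and rpl-6, against 42 with a reproducible peak (51.9%). The region at rpl-6 had 23.4 in replicate 1 and 23.5 in replicate 2. Of 40 translation factor genes 1 did, ife-2, which encodes a cap-binding eIF4E protein (22.4 and 28.7), against 8 with a reproducible peak. The counts were 0 of 32 tRNA synthetase genes, against 2, and 1 of 70 mitochondrial ribosomal protein genes, mrpl-23, against 4.

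Of 68 oxidative phosphorylation genes, 4 had such a region (5.88%), against 9 with a reproducible peak. They included nuo-1, of complex I, whose region (32.6 in replicate 1, 21.1 in replicate 2) also lay upstream of rpl-36.A, ucr-2.2, of complex III (31.1 and 21.1), and atp-3, of the ATP synthase (29.8 and 20.7). All 3 were higher in rank in replicate 1 than in replicate 2. Of 59 heat shock, DnaJ and chaperonin genes 3 did (5.08%), against 10, namely the J-domain genes dnj-5, dnj-19 and dnj-28. In the dnj-28 region 42.9% of the 31-base stretches are unique in the genome.

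Of 55 splicing factor genes 3 did (5.45%), against 8: snrp-40.1, hrpa-1, which encodes an hnRNP A1 protein (ranks 1254 and 1415), and snr-4, an Sm protein gene whose region shared its replicate regions with a reproducible peak. Of 33 proteasome genes 1 did, rpt-2, an ATPase of the regulatory particle, against 1. Of 32 ubiquitin conjugation genes 0 did, against 5, and of 20 vacuolar ATPase genes 1, vha-2, against 2.

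Nuclear hormone receptor genes gave the most genes of any list, 7 of 274 (2.55%), against 12 with a reproducible peak (4.38%). None had both, and only 14 of all 19973 protein-coding genes did, so the lack of overlap does not set this list apart. The region at nhr-35 had signals of 39.0 in replicate 1 and 27.6 in replicate 2, with a summit 317 bases upstream of the start. That at nhr-58 had 25.5 and 26.7, 63 bases upstream, and that at nhr-50 had 23.5 and 30.2, 41 bases past the start. The others were nhr-4, nhr-21, nhr-47, which shares its region with dnj-19, and nhr-76. The list is also among the largest, so its count is not comparable with that of a short list.

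Counts in the other lists of regulators were 0 or 1, too small to set apart from the 0.841% of all genes. Of 95 homeobox genes 0 did, against 2, and of 74 bHLH, bZIP, GATA and forkhead genes 1 did, zip-4, against 5. Of 81 histone genes 0 did, against 2, and of 20 heterochronic genes, which time larval development, 0 did, against 3. Of 25 sex determination and dosage compensation genes 0 did, against 0.

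In metabolism and defence, 4 of 185 cytochrome P450, UGT and GST genes had such a region (2.16%), against 3 with a reproducible peak. They were ugt-58 (40.6 and 35.6, shared with a reproducible peak), cyp-33C8 (ranks 2358 and 1934), ugt-23 (22.1 and 22.2) and gst-42. Many enzymes of these families modify foreign compounds. Of 349 genes for C-type lectins, lysozymes and infection response 2 did (0.573%), clec-115 and clec-60, against 0. These summits lay 935 and 951 bases upstream of the 2 starts. Each was nearer to another start, 841 bases upstream of C49A1.10 and 303 bases past that of ZK666.11. Of 131 lipid metabolism genes 1 did, acs-17, an acyl-CoA synthetase gene (ranks 936 and 1047), against 3.

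Of 213 collagen and cuticle genes 2 did (0.939%), col-148 and col-85, against 3. Of 51 body wall muscle and actin genes 1 did, act-1, which encodes actin and whose region (41.7 and 44.3) shared its replicate regions with a reproducible peak. Of 81 insulin, TGF-beta and Wnt signalling genes 2 did, against 3: ins-30, an insulin-like gene (25.9 and 23.3), and sma-9, a cofactor of TGF-beta signalling (31.7 and 31.1), the sma-9 region again beside a reproducible peak. Of 1364 chemoreceptor genes 2 did (0.147%), str-230 and srn-1, against 10. The F-box, MATH and BATH list had 0 of 395, against 4, and the neuropeptide, major sperm protein, intestine and epidermis lists had 0, against 0.

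Among noncoding genes, 7 of the 424 summits lay within 250 bases of a tRNA gene (1.65%, 0.802 to 3.37), against 2.62% of reproducible peaks, 1.29% of the other regions of the range and 0.541% of lower candidates. For snoRNA genes the count was also 7 (1.65%), against 1.65%, 1.42% and 0.319%. In each of these sets the same gene occurred more than once, so the counts are of summits and not of separate genes. For snRNA genes the count was 2 (0.472%), against 0.971%, 0.194% and 0.0444% in the same order of groups. Both are the regions at egg-5 and snr-4, which shared their replicate regions with a reproducible peak. For microRNA and lincRNA genes the count was 0 of 424, with a 95% Wilson upper bound of 0.898%.

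At nhr-11 itself (chromosome IV, 9070003 to 9073622) the pooled list held 0 candidate regions within 2000 bases, so the tagged gene is not among the 424. At unc-119 it held 5 regions, of which the strongest, with a signal of 59.5 at rank 859, was in the reproducible list, and 0 were among the 424.

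Of the 424 regions, 406 were unique in the genome for 90% or more of their 31-base stretches, and 18 were not. Among the latter were the regions nearest to cmd-1 and at ida-1, Y62F5A.12, rpa-2, snr-4, dnj-28 and col-85, where reads of another copy could contribute. The windows printed above for ida-1 and cmd-1 come from such regions.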

How the data were processed

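The authors deposited lists of candidate regions on ce10 and ce11 for each of 2 biological replicates and for both pooled, and a reproducible list after an IDR threshold, with 1030 regions on ce11, per the file headers and accompanying descriptions. The deposited peak signal came from the authors' caller with a control alignment. Its scale, the caller and the aligner are not given in the sources used here. Depth is unknown. The control was not analysed here.

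Members were pooled ranks 1031 to 3000 that overlapped one of the 3000 highest regions of each replicate. Summits were joined to Ensembl release 115 (WBcel235, the same build as ce11) with Python 3.11.15, pandas 2.3.3 and scipy 1.17.1. Coordinates are 1-based. Feature class followed 5' UTR, coding sequence, 3' UTR, noncoding exon, intron, intergenic. Genes were matched to 28 lists by symbol. Shares have 95% Wilson intervals and differences Newcombe intervals, which cover counting error only. There is 1 group, so no test was made. The scripts were tested on simulated data.

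Members, lists and words were chosen with earlier results of these data known. Named were the 12 members of highest pooled signal, the 8 of best rank in both replicates, up to 3 genes of each list, nhr-11 and unc-119. Printed windows were taken from regions outside chromosome I. They were further required to be wholly intergenic, a choice made after seeing the data. The patterns of the lipid metabolism and C-type lectin lists were corrected after first results were seen, since they took in unrelated symbols.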

Additional observations from a re-analysis of the deposited data

How the results depend on the processing

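Of 51 alternative values over 7 results, 38 kept within 1.5 times the count or within the interval or spread of the value as reported, and 13 moved. The number of regions was 160 with the 2000 highest regions of each replicate and 867 with the 5000 highest, and 1058 to 1081 when 1 replicate alone had to match. It was 375 with an overlap of 50%, 295 with replicate summits within 100 bases and 422 on ce10. The share at gene starts was 22.9% with a window of 500 bases upstream and 250 downstream and 61.8% with 2000 bases to each side. The share within 1000 bases of a reproducible summit was 4.90% to 4.91% when 1 replicate alone had to match, 2.99% without the 22 regions that share a replicate region with a reproducible peak, an alternative chosen after seeing the data, and 14.2% within 2000 bases. The share with GAGAGA was 16.3% to 19.8% when 1 replicate alone had to match and 34.2% within 100 bases of the summit. Mean GC content was 38.7% to 39.2% when 1 replicate alone had to match. Wider windows hold more bases and looser matching more regions by construction. No paired analysis was possible because there is 1 group. The signal scale and depth are unknown, which limits every statement on weak regions.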

Other observations

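Where regions of a candidate list overlapped, the weaker one lay more often on the side of higher coordinate. In the pooled list 1417 pairs of neighbouring regions overlapped, and this held for 1126 of them (79.5%). The percentage was 80.7% of 1360 pairs in replicate 1 and 77.7% of 1788 pairs in replicate 2. All 22 of the weak regions that share a replicate region with a reproducible peak lay on that side. Of these 22, 10 had a summit at a gene start and 7 held GAGAGA, against 127 and 90 of the other 402. Their pooled signals ran from 39.3 to 54.7, with a median of 44.4, against 38.1 to 54.8 and a median of 48.2 in the 402.

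Of the 424 regions, 40 had a summit within 1000 bases of another of the 424, and the smallest distance between summits was 199 bases. The 109 regions on chromosome II had a mean GC content of 37.5% ± 9.41 and the 58 on chromosome III 41.6% ± 8.47 (SD over regions). AGACGC was found in 17.2% of the regions on chromosome III (9.64 to 28.9) and 6.42% of those on chromosome II (3.15 to 12.7). Among intergenic regions of the 424 it was found in 11.4% (7.85 to 16.3), among those in coding sequence in 0 of 28 (upper bound 12.1%).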
